A study of Mus musculus with 8 samples.

Results

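The genes described here are 10 mouse genes of the neutrophil response, read in RNA from the corpus of the stomach, its acid- and pepsinogen-secreting region. They were taken by name out of the 54532 genes of the deposited count table, and all 10 were present there. The ligands are Cxcl1, Cxcl2, Cxcl3 and Cxcl5. The receptors are Cxcr2 and Csf3r. The remaining genes are S100a8, S100a9, Retnlg and Clec4e, which neutrophils are known to express. The 4 mutants had the genotype Six2-Cre+/- PKAcaR fl/wt and the 4 controls had the genotype Six2-Cre+/- PKAcaR wt/wt. All 8 mice thus carried Cre, driven by the promoter of Six2, on a mixed background of C57BL/6 and CD1, and none was treated. PKAcaR is known from the literature as a conditional allele of Prkaca, the gene for a catalytic subunit of protein kinase A. After Cre acts on it, its product needs no cyclic AMP to be active. In which cells of these mice Cre acted was not analysed here. Each library was 1 biological replicate per the series' design text, and the sources used here give neither age nor sex. The comparison was mutant against control.

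Neutrophils are short-lived phagocytes that leave the blood for tissue along gradients of chemokines. In mice the main chemokines of this kind are CXCL1, CXCL2, CXCL3 and CXCL5, small secreted proteins of the ELR+ CXC family that act on the receptor CXCR2, and epithelial cells, fibroblasts and macrophages are known to make them after NF-kB is activated. CSF3R, the receptor of granulocyte colony-stimulating factor, carries the signal for neutrophil production and survival. S100A8 and S100A9 form calprotectin, a zinc-binding complex that fills the cytosol of neutrophils and is also made by monocytes and by stressed squamous epithelium.

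Library totals were 18184281 to 23814720 reads in mutants and 18942308 to 22814152 in controls. CPM below are read counts scaled to the library size after TMM normalisation, and a count of 3, the floor used for a count of 0, was worth 0.1 to 0.129 CPM in mutants and 0.179 to 0.198 CPM in controls. Pgc, the pepsinogen C gene and a defining gene of chief cells in the corpus, held 0.107% to 4.6% of the reads in mutants and 20.7% to 31.2% in controls. Prkaca averaged 37.93 CPM in mutants and 80.2 CPM in controls (log2 fold change -1.08, SE 0.085, edgeR quasi-likelihood test with Benjamini-Hochberg adjustment, adjusted p = 0.000604). Mutant 2 stood apart: its log2 CPM correlated with those of the other mutants at r = 0.83 to 0.875, against 0.972 to 0.976 among the other 3 mutants and 0.969 to 0.978 among controls. Mutant 3 and control 3 held transcripts of squamous epithelium, with 3776 and 484 reads of Krt5, a keratin of basal squamous cells, against 0 or 1 in every other library. The 10 genes are given below with and without these libraries.

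Transcripts of 9 of the 10 genes were higher in mutant corpus (edgeR, adjusted p under 0.05 over all 15862 genes tested), none was lower, and Retnlg did not pass. Over all genes 9.39% were called higher and 10.8% lower in mutants. For the same 9 genes every mutant lay above every control in CPM, as did 14.2% of all genes tested. This count is a description, since 8 of the 10 genes reached the low-count cutoff (0.519 CPM on unscaled library totals, in 4 libraries) in mutants and in no control, and would not have been tested without a difference. In whole tissue, more cells that carry a transcript and more transcript per cell cannot be told apart. All 10 genes were highest in mutant 2, at 4.06 times (Cxcl1) to 31.6 times (S100a8) the mean of the other 3 mutants. Below mutant 2, mutant 4 came second for 9 genes, and mutant 3 was lowest for 7. The plot of each gene by library shows this order.

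**Figure D1:**
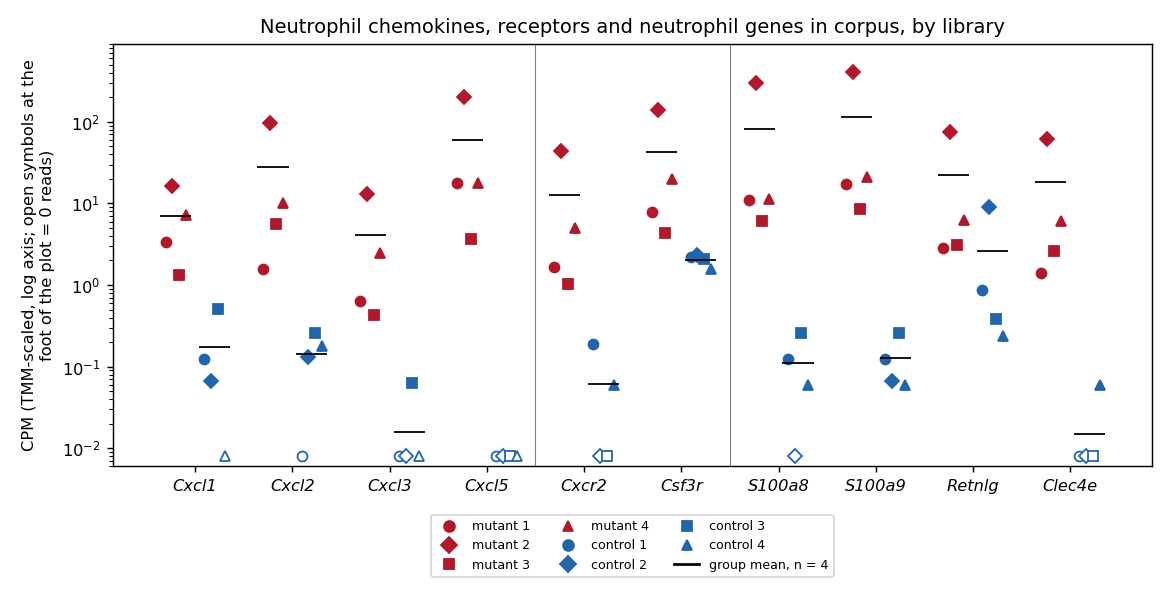
CPM on a log axis for the 10 genes in each library, with mutants in red on the left of each pair, controls in blue on the right, and black lines for the mean of each group (n = 4). Open symbols at the foot of the plot are libraries with 0 reads. The diamond of mutant 2 is the highest point for every gene, and Retnlg is the gene in which a control (control 2, 8.96 CPM) lies among the mutants.

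The 4 ligand genes lie together on chromosome 5, and the promoters of 3 of them are printed here because they hold the same stretch of sequence. RefSeq promoter entries on GRCm38.p6 matched 9 of the 10 genes (250 bases before to 50 after the start). The gene without an entry was Cxcl5, so its promoter was not searched. The 9 entries were searched on both strands for the NF-kB consensus. It was found in 3 of the 9, those of Cxcl1, Cxcl2 and Cxcl3, and in 4.51% of the 32851 promoters scanned. In each of the 3, 2 overlapping matches covered the same 11 bases, at 71 to 61 bases before the start in Cxcl1, 97 to 87 in Cxcl2 and 73 to 63 in Cxcl3. The 250 bases before the start follow on the plus strand, 5′ to 3′, with those 11 bases in capitals. They span chr5:90890995-90891244 for Cxcl1, chr5:90903649-90903898 for Cxcl2 and chr5:90785851-90786100 for Cxcl3.
Cxcl1: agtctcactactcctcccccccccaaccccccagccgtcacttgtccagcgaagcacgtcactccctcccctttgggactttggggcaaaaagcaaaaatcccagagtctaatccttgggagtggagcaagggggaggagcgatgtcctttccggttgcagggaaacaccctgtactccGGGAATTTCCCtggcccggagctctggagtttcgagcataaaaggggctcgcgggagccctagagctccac
Cxcl2: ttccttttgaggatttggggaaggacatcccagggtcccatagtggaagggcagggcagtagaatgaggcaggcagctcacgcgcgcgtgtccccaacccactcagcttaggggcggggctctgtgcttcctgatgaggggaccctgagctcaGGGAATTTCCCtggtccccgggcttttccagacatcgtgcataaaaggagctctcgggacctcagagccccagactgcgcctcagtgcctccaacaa
Cxcl3: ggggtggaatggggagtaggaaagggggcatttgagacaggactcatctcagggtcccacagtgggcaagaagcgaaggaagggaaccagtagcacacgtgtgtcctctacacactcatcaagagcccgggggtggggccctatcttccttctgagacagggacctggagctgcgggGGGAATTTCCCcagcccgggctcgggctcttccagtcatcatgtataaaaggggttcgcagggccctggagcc
The motif TTGCNNAA was found in the promoters of S100a9, Clec4e and Retnlg and in 10.8% of the promoters scanned. GAGGAAGT was found in that of S100a8 and in 3.2% of them. A match is a description of the sequence and says nothing of binding in these mice.

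Cxcl5, a chemokine known in mice as LIX and made chiefly by epithelium and platelets, was the ligand with no read in any control (ENSMUSG00000029371, chr5:90759360-90761624). Mutants 1 to 4 had 539, 4911, 86 and 417 reads, against 0 reads in each of the 4 controls. In CPM this was 18, 201, 3.71 and 17.9 in mutants, so the lowest mutant lay well above the floor of any control. Pooled over libraries, Cxcl5 was at least 1248-fold higher in mutants and at least 288-fold higher without mutant 2, both against a floor of 3 counts over the control group. The gene passed the test (edgeR, adjusted p = 0.0317). It did not pass without mutant 1 (adjusted p = 0.0515), without mutant 4 (0.0597), without any 1 of the controls (0.0616 to 0.0686) or without the low-count filter (0.131).

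Cxcl1, the ligand known in mice as KC (ENSMUSG00000029380, chr5:90891241-90893115), was the gene of the 10 in which mutant 2 stood least above the other mutants (4.06 times their mean). Its level was 3.37, 16.2, 1.34 and 7.29 CPM in mutants, against 0.126, 0.0659, 0.511 and 0 CPM in controls. All mutants were above all controls, and control 3 held 8 of the 11 control reads. The means were 7.06 ± 6.60 CPM in mutants and 0.176 ± 0.229 CPM in controls (SD, n = 4 each), with a log2 fold change of 5.29 (SE 1.11, edgeR, adjusted p = 0.0137). Without mutant 2 it was 4.47 (SE 0.85, adjusted p = 0.00304), and without control 1 the call was lost (0.0545).

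Cxcl2, known in mice as MIP-2 and a product of macrophages, neutrophils and epithelium (ENSMUSG00000058427, chr5:90903871-90905938), spread far more widely. It was measured at 1.57, 96.1, 5.65 and 10.1 CPM in mutants, against 0, 0.132, 0.255 and 0.18 CPM in controls. The lowest mutant held 47 reads and the highest control held 4. Means were 28.4 ± 45.3 CPM in mutants and 0.142 ± 0.107 CPM in controls (SD, n = 4 each), and the log2 fold change was 7.58 (SE 1.63, edgeR, adjusted p = 0.0153). Without mutant 2 it was 5.28 (SE 0.78, adjusted p = 0.000809), and it did not pass without control 1 (0.0543) or control 2 (0.0515).

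Cxcl3, a close relative of Cxcl2 (ENSMUSG00000029379, chr5:90786103-90789600), was the least abundant ligand. Mutants held 19, 321, 10 and 57 reads, against 0, 0, 1 and 0 reads in controls. Each mutant was above the single control read. The pooled CPM ratio, mutant over control, was 256 with a 95% counting interval of 45.7 to 10140, and 71.4 (12.5 to 2853) without mutant 2. The edgeR test gave an adjusted p of 0.0178 with all libraries and 0.00187 without mutant 2, and 0.0538 to 0.0908 without any 1 of controls 1 to 4.

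The other genes of the same stretch of chromosome 5 behaved differently in part. Cxcl15, the neutrophil-attracting chemokine also called lungkine, lies between Cxcl3 and Cxcl1. It had 31, 10, 26 and 29 reads in mutants, against 4, 0, 0 and 1 in controls (log2 fold change 3.50, SE 0.86, edgeR, adjusted p = 0.0225), so mutant 2 was here the lowest mutant. No control reached the low-count cutoff for Cxcl15. This call was lost without mutant 4 (0.0587), without control 2 (0.0576), control 3 (0.0604) or control 4 (0.0695). Pf4, a platelet chemokine gene between Cxcl5 and Cxcl3, did not pass, with 92, 765, 56 and 79 reads in mutants and 107, 83, 91 and 70 in controls (0.86, SE 0.83, adjusted p = 0.49). Without mutant 2, Pf4 was lower in mutants (-0.90, SE 0.24, adjusted p = 0.0151). Ppbp, which encodes a platelet precursor of a CXCR2 ligand, had 10, 46, 18 and 1 reads in mutants and 1, 0, 5 and 1 in controls and was left out by the low-count filter.

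**Figure D2:**
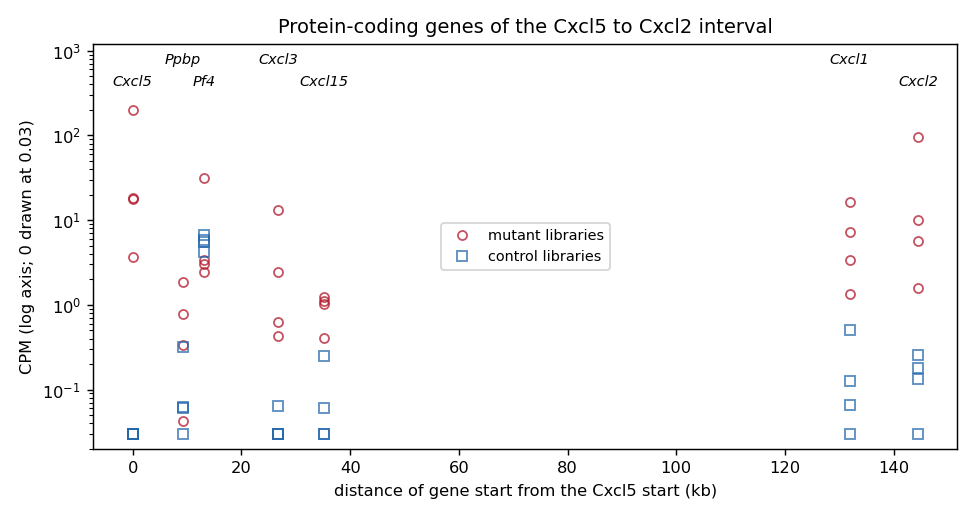
CPM on a log axis for the protein-coding genes of the ligand stretch of chromosome 5, placed by the distance of their start from that of Cxcl5 in kb, with mutants in red and controls in blue. Libraries with 0 reads are drawn at the foot. The 4 ligand genes and Cxcl15 have all 4 mutants above all 4 controls, and Ppbp and Pf4, 9.2 and 13.1 kb from Cxcl5, have overlapping groups.

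The makeup of the ligand transcripts differed among mutants. In FPKM, which divides reads by gene length and so allows levels of different genes to be set side by side, Cxcl5 stood at 9.60, 107, 1.98 and 9.50 in mutants 1 to 4. It made up 77.9%, 64.7%, 35.8% and 50.3% of the summed FPKM of the 4 ligands. Cxcl2 made up 6.12%, 27.9%, 49.1% and 25.7%, and so was the leading ligand in mutant 3 and the third in mutant 1. Cxcl1 held 5.20% to 20.4% and Cxcl3 held 1.46% to 3.66%. Mutant 1 had 706 ligand reads, mutant 2 had 7979, mutant 3 had 258 and mutant 4 had 880, against 2, 3, 13 and 3 in controls, too few for shares.

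**Figure D3:**
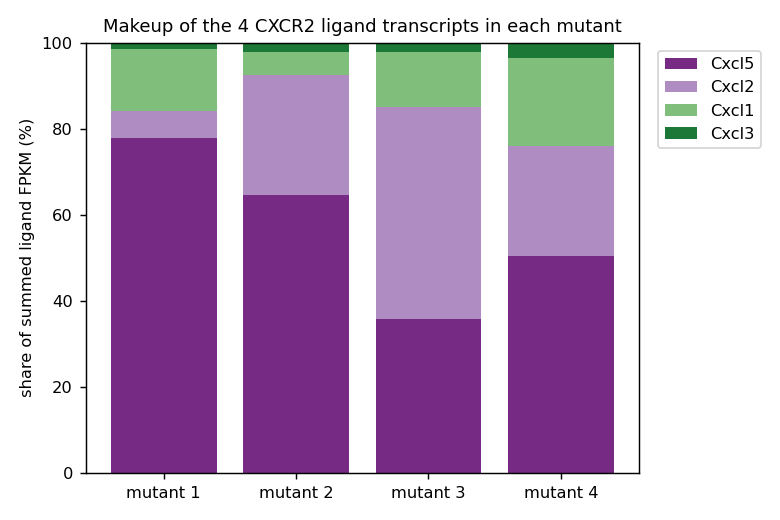
Stacked bars of the share of the summed FPKM of Cxcl1, Cxcl2, Cxcl3 and Cxcl5 that each ligand held in each mutant. Cxcl5 is the largest band in mutants 1, 2 and 4, and Cxcl2 is the largest in mutant 3 (49.1%).

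Both receptor genes rose. Cxcr2, the receptor of all 4 ligands (ENSMUSG00000026180, chr1:74153989-74161246), was at 1.67, 43.7, 1.035 and 5.06 CPM in mutants, against 0.188, 0, 0 and 0.0598 CPM in controls. All mutants were above all controls, in which 4 reads of Cxcr2 were counted in all. The log2 fold change was 7.55 (SE 1.73, edgeR, adjusted p = 0.0185), and 5.23 (SE 0.88, adjusted p = 0.00109) without mutant 2. It did not pass without control 1 (0.0502), control 2 (0.0579), control 3 (0.0603) or control 4 (0.0568).

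Csf3r, the receptor of granulocyte colony-stimulating factor (ENSMUSG00000028859, chr4:126024550-126044440), was the gene of the 10 with an even level in controls. It was measured at 7.85, 139, 4.31 and 19.8 CPM in mutants, against 2.20, 2.31, 2.11 and 1.56 CPM in controls. The lowest mutant was 1.87 times the highest control. Means were 42.8 ± 64.7 CPM in mutants and 2.04 ± 0.334 CPM in controls (SD, n = 4 each), with a log2 fold change of 4.39 (SE 1.13, edgeR, adjusted p = 0.0296). Without mutant 2 the log2 fold change was 2.38 (SE 0.46, adjusted p = 0.00389), and without any 1 of the controls the adjusted p was 0.0803 to 0.0871. Csf3r also did not pass without the low-count filter (0.0819) or without control 3 and mutant 3 (0.0564). By limma-voom its adjusted p was 0.0605, and by limma-trend on FPKM it was 0.0639 to 0.187. Csf3, the gene of its ligand, had 3, 331, 2 and 39 reads in mutants and 1, 0, 2 and 0 in controls and was left out by the low-count filter.

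S100a8 and S100a9, which encode the subunits of calprotectin, were the most abundant of the 10 genes in FPKM in every mutant. S100a9 (ENSMUSG00000056071, chr3:90692632-90695721) was at 17.2, 408.5, 8.45 and 21 CPM in mutants, against 0.126, 0.0659, 0.255 and 0.0598 CPM in controls. The lowest mutant was 33.1 times the highest control. Its log2 fold change was 9.75 (SE 1.87, edgeR, adjusted p = 0.0103), and 6.88 (SE 0.46, adjusted p = 6.63e-06) without mutant 2. It was called at 0.05 under every alternative that gave an adjusted p, the highest being 0.0415. DESeq2 gave S100a9 no adjusted p, and the reason was not examined.

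S100a8 (ENSMUSG00000056054, chr3:90668978-90670035) followed its partner. It had 331, 7374, 142 and 268 reads in mutants, against 2, 0, 4 and 1 in controls. In CPM these were 11.1, 301.5, 6.12 and 11.5 in mutants, and the lowest mutant was 23.98 times the highest control. The log2 fold change was 9.47 (SE 1.97, edgeR, adjusted p = 0.0136), and 6.36 (SE 0.50, adjusted p = 1.21e-05) without mutant 2. Without control 1 it missed the threshold (0.0507). The FPKM ratio of S100a9 to S100a8 was 2.07 (95% counting interval 1.80 to 2.38), 1.80 (1.75 to 1.86), 1.84 (1.47 to 2.29) and 2.43 (2.09 to 2.83) in mutants 1 to 4. The intervals of mutants 2 and 4 do not overlap, but the ratios lay within a narrow range beside S100a8 itself, at 301.5 CPM in mutant 2 and 6.12 CPM in mutant 3.

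Clec4e encodes Mincle, a C-type lectin on macrophages and neutrophils that binds microbial glycolipids and a nuclear protein of dead cells (ENSMUSG00000030142, chr6:123281789-123289870). It had 42, 1523, 60 and 144 reads in mutants, against 0, 0, 0 and 1 in controls. All mutants were above all controls. The pooled CPM ratio, mutant over control, was 1113 with a 95% counting interval of 199.5 to 43980, and 204 (36.3 to 8100) without mutant 2. The edgeR test gave an adjusted p of 0.0122 with all libraries and 0.00013 without mutant 2, and it did not pass without control 4 (0.0765), the library with the 1 control read.

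Retnlg, which encodes a resistin-like protein known in mice from neutrophils and bone marrow (ENSMUSG00000022651, chr16:48872621-48874496), was the exception. Mutants had 2.84, 76.0, 3.10 and 6.21 CPM, against 0.879, 8.96, 0.383 and 0.239 CPM in controls. Control 2, with 136 reads, lay above mutants 1, 3 and 4. The log2 fold change was 3.08 (SE 1.50, edgeR, adjusted p = 0.176), and 0.64 (SE 1.19, adjusted p = 0.722) without mutant 2. Retnla, a family member next to it on chromosome 16, was also highest in control 2 (710 reads), with 0, 3, 22 and 62 reads in mutants and 243, 710, 134 and 78 in controls. Whether reads were shared between these relatives was not tested.

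Leaving out mutant 2 lowered the fitted fold change of all 10 genes and lowered the adjusted p of the 9 that passed. Without it 9 of the 10 genes were again called higher, against 15.2% of all genes (18.3% lower), and Retnlg again did not pass. Leaving out a control cut the calls more. Without control 1, 2 of the 10 were called higher (S100a9 and Clec4e), against 4.08% of all genes, and without control 2, 4 were, against 4.79%. Without control 3, 5 were, against 4.32%, and without control 4, 4 were, against 5.77%. Without mutant 1, 8 were, against 7.25%, without mutant 3, 9 were, against 9.56%, and without mutant 4, 8 were, against 5.21%. Without both libraries with squamous transcripts, control 3 and mutant 3, 5 of the 10 were called higher (Cxcl1, Cxcr2, S100a8, S100a9 and Clec4e), against 3.67%. In each of these fits all 10 fold changes stayed above 0. For the 8 genes that reached the low-count cutoff in no control, a fall could not have been seen. With column totals as library sizes, which set the median over all genes at 0.76 and so 0.70 higher (log2), the same 9 genes were called higher, against 59.3% of all genes.

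**Figure D4:**
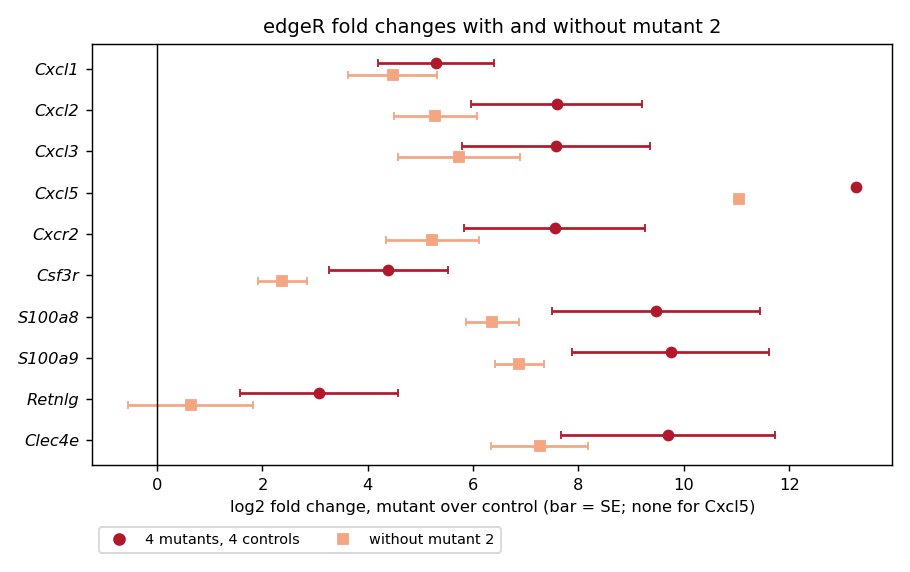
Log2 fold changes (mutant over control, edgeR) of the 10 genes, with all 8 libraries in red circles and without mutant 2 in orange squares. Bars are 1 SE and are missing for Cxcl5, which has no control reads and whose fitted value is no bound. Every square lies left of its circle, and the bar of Retnlg without mutant 2 (0.64, SE 1.19) crosses 0.

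Other neutrophil genes were less uniform. Of 17 genes for granule and antimicrobial proteins, 10 were tested, 4 rose and none fell, against 9.39% and 10.8% of all genes. The list's median log2 fold change was 2.47, against 0.07 over all genes tested. Without mutant 2 the list's median was 1.24, against 0.02 over all genes. With column totals as library sizes all 10 were called higher, as were 59.3% of all genes. Chil3 was tested through mutants alone, since no control reached the low-count cutoff. Lcn2, an iron-scavenging lipocalin of secondary granules and of epithelium, was at 45.3, 581, 18.6 and 44.9 CPM in mutants, against 0.816, 0.461, 0.383 and 0.479 CPM in controls (log2 fold change 8.32, SE 1.43, edgeR, adjusted p = 0.00678), and its log2 fold change was 6.07 (SE 0.40) without mutant 2. Chil3, a chitinase-like protein of macrophages and neutrophils, rose by 6.93 (SE 1.14, adjusted p = 0.00547) and Cybb, the catalytic subunit of the phagocyte NADPH oxidase, by 2.30 (SE 0.63, adjusted p = 0.0373). Without mutant 2 these were 6.22 (SE 0.88) and 1.31 (SE 0.27), and both passed. Ltf, the lactoferrin gene, was the list's most abundant member and had 11874, 47764, 4093 and 2698 reads in mutants and 2, 2, 314 and 1 in controls (7.02, SE 2.01, adjusted p = 0.0423). It did not pass without mutant 1 (0.0629), mutant 2 (0.0608) or mutant 4 (0.0632), nor without control 1 (0.102), control 2 (0.0958) or control 4 (0.0882). Cybb did not pass without mutant 4 (0.052) or without any 1 of the controls (0.0799 to 0.106). Without control 1, 2, 3 or 4 the list had 2, 2, 3 and 2 members higher, and without mutant 4 it had 2.

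The genes of primary granules, which neutrophil precursors transcribe and mature neutrophils largely do not, had most of their reads in mutant 2. Elane, the neutrophil elastase gene, had 0, 101, 0 and 0 reads in mutants and 0 in every control. Mpo, the myeloperoxidase gene, had 2, 230, 0 and 1 reads in mutants and 2, 0, 0 and 1 in controls. Prtn3, the proteinase 3 gene, was less confined to that library, with 21, 205, 8 and 5 reads in mutants and 3, 1, 1 and 4 in controls. In mutants 1, 3 and 4, where S100a9 had 515, 196 and 490 reads, none of these 3 genes exceeded 21. Camp and Ngp, genes of secondary granule proteins, had 11, 237, 7 and 1 reads and 82, 1039, 4 and 2 reads in mutants, and 0 in every control. None of these 5 genes passed the low-count filter, so none was tested. The summed level of the granule list was 492, 3080, 228 and 231 CPM in mutants, against 17.8, 31.8, 43.5 and 20.4 CPM in controls, without overlap. Ltf alone made up 397, 1953, 176.5 and 116 CPM of this in mutants, and 0.126, 0.132, 20.04 and 0.0598 CPM in controls. In mutants 3 and 4 Ltf had 4093 and 2698 reads, where Camp and Ngp had at most 7. The cells that carried Ltf were not identified.

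Of 25 neutrophil surface and lineage genes, 19 were tested, 5 rose and 1 fell, against 9.39% and 10.8% of all genes. The list's median log2 fold change was 3.27, and 1.26 without mutant 2. With column totals as library sizes 17 were higher and none lower, against 59.3% of all genes higher. Fpr1, Fpr2, Trem1 and Gfi1 were tested through mutants alone, since no control reached the low-count cutoff. The 5 that rose were Cd177, Fpr2, Fcgr4, Hcar2 and Slfn4. Cd177, a surface glycoprotein of neutrophils, was at 96.2, 992, 39.0 and 51.1 CPM in mutants, against 10.9, 7.25, 10.4 and 9.87 CPM in controls (log2 fold change 4.94, SE 1.15, edgeR, adjusted p = 0.0211). Without mutant 2 it was 2.69 (SE 0.31, adjusted p = 0.000356). Controls held 110 to 173 reads of Cd177 each, where they held 1 to 4 of S100a9. The cells that carried Cd177 were not identified. Slfn4 rose by 4.15 (SE 0.99, adjusted p = 0.0225) and Fcgr4, an activating Fc receptor of monocytes and neutrophils, by 3.27 (SE 0.80, adjusted p = 0.0244). Without mutant 2 these were 3.01 (SE 0.73) and 2.28 (SE 0.49), and both passed. Mxd1, a MAX partner that neutrophils and differentiating epithelium express, was lower (-0.76, SE 0.21, adjusted p = 0.0401), and at -0.07 (SE 0.25, adjusted p = 0.804) with column totals as library sizes. That call was also lost without mutant 1, 3 or 4 (0.076 to 0.0839) or without control 2, 3 or 4 (0.0517 to 0.0998).

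Ly6g, the gene of the antigen that defines mouse neutrophils, had 7, 95, 0 and 6 reads in mutants and 0 in every control and was not tested. Trem1, a receptor that amplifies neutrophil activation, had 30, 606, 12 and 53 reads in mutants and 0 in every control (edgeR, adjusted p = 0.0537). In summed level the surface list overlapped, at 267, 2178, 167 and 311 CPM in mutants and 182, 251, 196 and 236 CPM in controls. Mxd1 alone made up 80.4, 102, 66.0 and 93.8 CPM of this in mutants, and 113, 187, 113 and 168 CPM in controls. Without mutant 2, 9 members were higher and 1 lower, against 15.2% and 18.3% of all genes. Without control 1, 2, 3 or 4 there were 0, 2, 0 and 0 members higher, against 4.08% to 5.77% of all genes. Without control 3 and mutant 3 there was 1, against 3.67% of all genes, and without mutant 3 there were 10, against 9.56%. Cd177, Fpr2 and Hcar2 did not pass without any 1 of the controls (0.0527 to 0.0952), nor did Slfn4 and Fcgr4 without control 1, 3 or 4 (0.0657 to 0.0755). The plot of both lists by library shows mutant 2 as the column with the highest level of most genes.

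**Figure D5:**
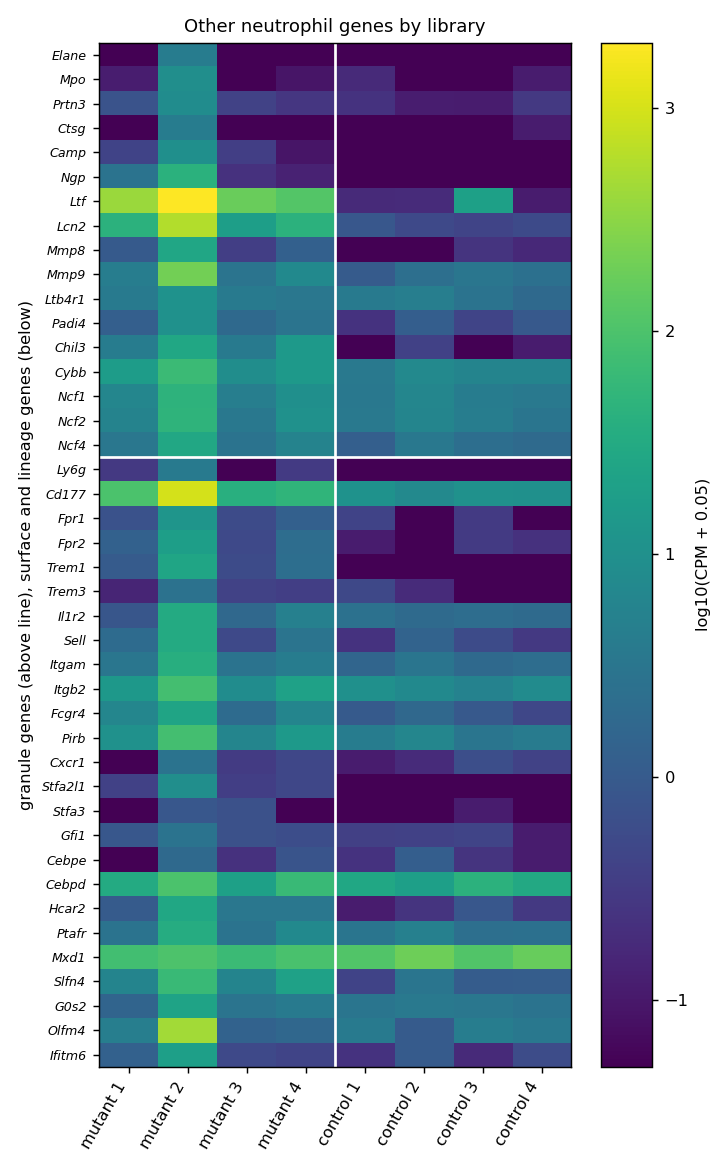
Heat map of log10(CPM + 0.05) for the genes of the granule list (above the line) and of the surface and lineage list (below it), with mutants 1 to 4 left of controls 1 to 4. Mutant 2 has the brightest cells for most genes (Cd177 at 992 CPM), and Elane, at 101 reads there, is dark in all other libraries.

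Upstream signals known to induce the ligands were measured in a list of 17 genes, of which 15 were in the table and 9 were tested. Of these 4 rose (Il1a, Il1b, Tnf and Nfkbiz) and none fell, against 9.39% of all genes higher and 10.8% lower. The list's median log2 fold change was 1.68, and 1.57 without mutant 2, against 0.07 and 0.02 over all genes. With column totals as library sizes 7 were called higher, against 59.3% of all genes. Il1a, Tnf and Il17a were tested through mutants alone, since no control reached the low-count cutoff, so for them a fall could not have been seen. Nfkbiz, a nuclear IkB protein that interleukin 1 and interleukin 17 induce, was even among mutants, at 162, 156, 75.5 and 115 CPM, against 32.9, 46.3, 36.8 and 43.0 CPM in controls (log2 fold change 1.68, SE 0.25, edgeR, adjusted p = 0.00396). Il1a, an alarmin of epithelium and myeloid cells, had 81, 338, 38 and 91 reads in mutants and 5, 1, 0 and 2 in controls (5.39, SE 1.01, adjusted p = 0.00947). Tnf had 63, 568, 45 and 91 reads in mutants and 3, 0, 6 and 1 in controls (5.57, SE 1.22, adjusted p = 0.0163). Without mutant 2 the log2 fold changes were 1.57 (SE 0.24) for Nfkbiz, 4.38 (SE 0.64) for Il1a and 4.02 (SE 0.64) for Tnf, and all 3 passed. Il17a, a lymphocyte cytokine that induces CXCR2 ligands in epithelium, had 34, 328, 13 and 20 reads in mutants and 0 in every control, just outside the threshold (adjusted p = 0.0501). Il6 had 2, 351, 3 and 17 reads in mutants and 4, 6, 2 and 2 in controls and was not tested. Without control 1 or control 4, 2 members of the list were higher, where Tnf did not pass (0.057 and 0.0527). Il1b did not pass without any 1 of the controls (0.0602 to 0.0724).

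A list of 10 genes for leukotriene B4 and other attractants had 8 tested. Of these 4 rose (Alox5, Alox5ap, Saa3 and Anxa1), against 9.39% of all genes. The list's median log2 fold change was 1.75, and 1.10 without mutant 2, against 0.07 and 0.02 over all genes. With column totals as library sizes all 8 were called higher, as were 59.3% of all genes. Alox5, the 5-lipoxygenase gene, was at 13.2, 18.6, 20.2 and 28.3 CPM in mutants, against 4.83, 8.96, 6.51 and 5.62 CPM in controls (log2 fold change 1.63, SE 0.28, edgeR, adjusted p = 0.00666), and mutant 2 was here within the range of the other mutants. Alox5ap, which presents arachidonic acid to that enzyme, rose by 1.88 (SE 0.47, adjusted p = 0.0274). Anxa1, a protein that restrains neutrophil entry, was the most abundant of the list and also rose (1.60, SE 0.21, adjusted p = 0.00265). Saa3, an acute-phase protein gene, spread as widely as the CXCR2 ligands and its groups overlapped, at 6.95, 206, 1.85 and 17.1 CPM in mutants, against 0.314, 0.198, 0.830 and 3.53 CPM in controls (5.55, SE 1.66, adjusted p = 0.0488). Without control 1, 3 or 4, or without mutant 4, 2 members were higher, and Alox5ap did not pass (0.0596 to 0.0807). Saa3 did not pass without mutant 2 (0.0947), mutant 4 (0.0706) or any 1 of the controls (0.0666 to 0.129).

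Among 7 other ligands and receptors of this kind, 5 were tested, Cxcl15 rose and none fell, against 9.39% and 10.8% of all genes. The list's median log2 fold change was 0.86, and -0.55 without mutant 2. Cxcr4, which holds neutrophils in bone marrow, was at 6.58, 65.3, 6.21 and 9.04 CPM in mutants, against 3.70, 2.90, 4.34 and 2.63 CPM in controls, without overlap (log2 fold change 2.68, SE 0.83, edgeR, adjusted p = 0.0544). Without mutant 2 Cxcr4 passed (1.10, SE 0.24, adjusted p = 0.00525). Cxcl12, its ligand and the most abundant of the list, did not pass with all libraries (-0.22, SE 0.63, adjusted p = 0.83) and was lower in mutants without mutant 2 (-1.40, SE 0.19, adjusted p = 0.000338). This list had no member higher without control 2, 3 or 4 or without mutant 4, and 2 higher without mutant 1, 2 or 3, with 2 lower without mutant 2.

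Of 8 genes for endothelial adhesion, 7 were tested, and Icam1, a ligand of the leukocyte integrins, rose (log2 fold change 2.37, SE 0.50, edgeR, adjusted p = 0.0141). It was at 13.1, 60.4, 14.8 and 29.4 CPM in mutants, against 6.53, 6.46, 5.43 and 4.31 CPM in controls, and its log2 fold change was 1.75 (SE 0.28) without mutant 2. Selp, the P-selectin gene on which neutrophils roll, had overlapping groups, at 1.24, 15.7, 1.12 and 6.60 CPM in mutants and 1.32, 1.45, 1.21 and 1.08 CPM in controls (2.28, SE 0.84, adjusted p = 0.0884). Vcam1 (1.55, SE 0.64, adjusted p = 0.123) did not pass. Pecam1, a general endothelial gene and the most abundant of the list, did not pass with all libraries (0.52, SE 0.60, adjusted p = 0.561) and was lower without mutant 2 (-0.59, SE 0.11, adjusted p = 0.00234). With all libraries 1 of the 7 was called higher, against 9.39% of all genes. The list's median log2 fold change was 1.55, and -0.36 without mutant 2. In that fit 1 member was higher and 2 were lower, against 15.2% and 18.3% of all genes. Without mutant 3, 2 were higher, against 9.56% of all genes.

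Markers of other cells that can carry some of the 10 transcripts moved as well. Of 15 monocyte and macrophage genes, all tested, 4 rose (Ccr2, Cd14, Fcgr1 and Clec4d) and none fell. Over all genes 9.39% were higher and 10.8% lower. Without any 1 of the controls 1 of the 15, Cd14, was higher, against 4.08% to 5.77% of all genes. In those fits Ccr2, Fcgr1 and Clec4d gave adjusted p-values of 0.0649 to 0.118. Without mutant 3, 7 were higher, against 9.56% of all genes. Their median log2 fold change was 1.44, and 0.53 without mutant 2. Their summed level was 492, 1936, 284 and 521 CPM in mutants, against 270, 300, 249 and 246 CPM in controls, so that mutant 3 lay within the range of the controls. Cd14, an endotoxin co-receptor, was at 73.8, 112, 22.5 and 44.4 CPM in mutants, against 4.65, 4.55, 5.49 and 4.55 CPM in controls (log2 fold change 3.71, SE 0.47, edgeR, adjusted p = 0.0023), and was at 3.29 (SE 0.38) without mutant 2. Clec4d, the neighbour and partner of Clec4e, which was tested through mutants alone, rose by 5.81 (SE 1.41, adjusted p = 0.0233), and by 3.45 (SE 0.59) without mutant 2, and Lyz2, the most abundant of the list, was at 1.69 (SE 0.56, adjusted p = 0.0678). No gene of the list was at 0 in all controls, and its part in the levels of Clec4e, S100a8 and S100a9 was not tested.

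Of 14 genes of the squamous forestomach epithelium 5 were tested, and none passed in edgeR or had an unadjusted p under 0.05. Their summed level was 24.8, 14.9, 909 and 31.4 CPM in mutants, against 59.3, 40.6, 370 and 46.9 CPM in controls. Mutant 3, the mutant with the most squamous transcript, had the lowest S100a8 and S100a9 of the 4 mutants. Control 3, the control with the most squamous transcript, had 4 reads of each, the most among the controls. Krt13, a squamous keratin, was at 228 CPM in mutant 3 and 78.1 CPM in control 3 and at most 0.943 CPM in the other libraries. Ivl, Sprr1a and Sbsn, genes of the cornified envelope and the upper squamous layers, had overlapping groups and log2 fold changes of 1.60 (SE 1.019), -0.80 (SE 0.70) and 0.52 (SE 0.47). Without mutant 3 and control 3, S100a8 and S100a9 were called. The part of squamous epithelium in their levels was not tested. Of 8 red cell and platelet genes, 7 were tested, and none passed in edgeR or had an unadjusted p under 0.05. Their summed level was 102, 403, 67.2 and 24.2 CPM in mutants, against 78.8, 44.1, 51.4 and 71.6 CPM in controls, highest in mutant 2 and lowest in mutant 4, the library second in 9 of the 10 genes. Hbb-bs, a beta globin gene, was at 49.6, 216, 30.2 and 9.68 CPM in mutants, against 32.9, 18.2, 20.9 and 32.8 CPM in controls (log2 fold change 1.54, SE 0.82, edgeR, adjusted p = 0.21). Hba-a2 (1.27, SE 0.81) and Alas2 (1.46, SE 0.77) did not pass either. The part of blood in the levels of mutant 2 was not tested.

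Of 12 mast cell and eosinophil genes, 11 were tested and Siglecf, an eosinophil lectin, rose (log2 fold change 1.68, SE 0.49, edgeR, adjusted p = 0.0455). A single call among 11 is close to the 9.39% over all genes. The groups of Siglecf overlapped, with mutant 1 at 2.17 CPM and control 2 at 2.70 CPM, and the call was lost without any 1 of the controls, mutant 3 or mutant 4 (0.0641 to 0.119). Prg2, an eosinophil granule gene tested through mutants alone, did not pass (1.83, SE 0.63, adjusted p = 0.0682). Kit, the stem cell factor receptor of mast cells and of interstitial cells of the gut, was at -1.18 (SE 0.44, adjusted p = 0.0912), and lower without mutant 2 (-1.75, SE 0.28, adjusted p = 0.0016). The list's summed level was 48.1, 107, 86.5 and 132 CPM in mutants and 101, 166, 108 and 105 CPM in controls. Of 13 gastric epithelial genes, 11 were tested. Of these 3 rose (Muc6, Tff2 and Epcam) and 2 fell (Atp4a and Pgc), against 9.39% and 10.8% of all genes. Without mutant 2, 3 rose and 8 fell, against 15.2% and 18.3% of all genes. Neither Atp4a nor Pgc passed without mutant 1, mutant 4 or any 1 of the controls (0.0529 to 0.106). Tff2 did not pass without mutant 4 (0.0628), control 1 (0.0749), control 3 (0.0799) or control 4 (0.0679), and neither Muc6 (0.0734) nor Tff2 (0.137) passed without control 3 and mutant 3. Their summed level was 53650, 12680, 99250 and 62270 CPM in mutants, against 351000, 344200, 519900 and 334300 CPM in controls. It was lowest in mutant 2, where the 10 genes were highest, and highest among mutants in mutant 3, where 7 of the 10 were lowest. Its part in these levels, which are shares of all reads, was not tested.

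The genes most like the ligands were looked for by their profile, the log2 CPM over the 8 libraries centred on their mean, among 13621 tested genes with a mean of at least 1 CPM. The measure was the root mean square difference from the mean profile of the 4 ligands. H19, an imprinted long noncoding RNA of fetal tissue, came first at 0.40 log2 units, at 23.2, 326, 25.9 and 42.8 CPM in mutants and 0.816, 0.988, 1.28 and 0.539 CPM in controls (log2 fold change 6.85, SE 1.13, edgeR, adjusted p = 0.00595). Trem1 (0.55), Mmp10 (0.62), a stromelysin, Wfdc18 (0.65) and Lrg1 (0.66), a secreted glycoprotein, followed. Against the mean profile of the 6 other genes Trem1 came first (0.32), followed by Draxin (0.41), Ltbp2 (0.47), H19 (0.54) and the immunoglobulin segment Igkv10-96 (0.59). Lrg1 was at 249, 733, 66.6 and 305 CPM in mutants, against 5.96, 5.73, 5.75 and 4.85 CPM in controls. All these genes were picked by their profile over the same libraries, so their differences between mutants and controls restate that choice.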

How the data were processed

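Per the labels' protocols, corpus tissue went into RNAlater, RNA was extracted with Trizol, and libraries were prepared from polyA RNA with NEBNext reagents. The authors deposited raw counts of reads for each Ensembl gene, together with FPKM values for those genes. The submitters' processing notes list STAR 2.5, featureCounts, fastp and CASAVA, with no role for any. Neither the genome build nor the strand setting is stated in the labels or files used here. Of 54532 table genes 54409 were in GENCODE M21 (GRCm38), and all 10 genes described had the same start and end there. None of them overlaps another annotated gene.

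Columns were matched to samples by name, with SCI taken to be SC1. The closest pair of libraries within a group still differed well beyond sampling noise (chi-square per degree of freedom 14.21). Low-count genes were removed with filterByExpr, which left 15862. Counts were TMM-scaled and fitted in R 4.3.3 by the robust quasi-likelihood method of edgeR 4.0.16. Fold changes are mutant over control, p-values are Benjamini-Hochberg adjusted over all tested genes, and the threshold is 0.05. Adjusted p-values come from this fit where no other tool is given. The SE is the size of the fitted log2 coefficient divided by the square root of F, and is left out for genes with an empty group. The 95% counting intervals of pooled ratios are exact binomial, and intervals and floors cover counting error only.

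The 10 genes and the other lists were chosen with earlier results of these data known. From each other list the 3 tested genes with the smallest p and the most abundant gene were named, and likeness named 5 genes per profile. Other genes named were chosen after their values were seen. Alternatives changed the tool (DESeq2 1.42.0, or limma 3.58.1 by voom with weights), the scaling (RLE factors or column totals), the filter (none, or 1 CPM or more in 4 libraries), the libraries (each left out, and control 3 with mutant 3 left out), the unit (FPKM by limma-trend, as log2 with a pseudocount of 1 or 0.1) and the threshold (0.01), or added the replicate number as a block. The fits were tested on simulated data.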

Additional observations from a re-analysis of the deposited data

Results flagged for a closer look

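Within groups of 4, 40 of 118 sets of values held a library set apart from its nearest neighbour. Its gap, as a share of the whole range, was above the 95% critical value of Dixon's test. For independent normal values, chance passes it in about 1 group in 20. These sets share their libraries and were taken as unlogged CPM, so that rate need not hold here. In 29 of the 40 the library was mutant 2, above the other mutants. For the genes described it stood apart by 0.91 of the range in Cxcl2, 0.842 in Cxcl3, 0.927 in Cxcl5, 0.906 in Cxcr2, 0.886 in Csf3r, 0.982 in S100a8, 0.969 in S100a9, 0.954 in Retnlg and 0.922 in Clec4e. Cxcl1 was not among them. Retnlg was also set apart in controls, by 0.927 of the range, with control 2 high.

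Among other genes mutant 2 stood apart by 0.952 of the range in Cxcr4, 0.966 in Pf4, 0.941 in Cxcl12, 0.908 in Tnf, 0.953 in Lcn2, 0.863 in Cybb, 0.847 in Ltf and 0.94 in Cd177. It did so by 0.855 in Anxa1, 0.846 in Vcam1, 0.994 in Pecam1, 0.935 in Clec4d, 0.905 in Ccr2 and 0.842 in Lyz2. Of the summed levels of lists, mutant 2 stood apart by 0.946 for the other ligands and receptors, 0.907 for granule genes, 0.928 for surface and lineage genes, 0.869 for leukotriene B4 and other attractants, 0.95 for endothelial adhesion and 0.857 for monocytes and macrophages.

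The remaining gaps belonged to other libraries. Mutant 3 was high in Krt13 (0.996 of the range) and in the summed squamous list (0.982). Control 3 was high in Krt13 (0.996), the squamous list (0.943), Sbsn (0.888), Ltf (0.996), Cd14 (0.893), Pgc (0.951) and the gastric list (0.91), and control 2 in the mast cell and eosinophil list (0.895). No cause was tested for any of these gaps.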

How the results depend on the processing

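Of 186 fold changes of the 10 genes under 19 alternatives, all had the direction of the edgeR fit with all libraries, 139 kept their side of the threshold, 46 lost the call and 1 gained it. The shared direction is no support for 8 of the 10 genes. They reached the low-count cutoff in no control, so a fall could not have been seen. S100a9 was called at 0.05 under each alternative that gave it an adjusted p. DESeq2 gave none for S100a8, S100a9 and Retnlg, and called the other 7, against 14.6% of all genes higher. The number of the 10 genes called, 9 in the edgeR fit with all libraries, was 2 to 9 when 1 library was left out. It was 5 without control 3 and mutant 3, 4 by limma-trend on log2(FPKM + 1) for genes averaging 0.5 FPKM or more (7.31% of all genes higher), and 2 without that filter (2.83%). At an adjusted p under 0.01 it was 0 by edgeR (2.4% of all genes higher). An unadjusted edgeR p under 0.05 was reached by 9 of the 10, and by 5765 of all 15862 genes tested, in either direction. Over all genes, 3208 calls became 5668 by limma-voom, 10136 with column totals (9412 higher and 724 lower, against 1489 and 1719), 1410 without control 3 and mutant 3, 1047 at the 0.01 threshold, and 1717 to 5400 when 1 library was left out. The cause of these differences was not tested.

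The labels do not state that the replicate numbers pair the libraries. The deviations of same-numbered libraries from their group means correlated at r = 0.046, -0.062, 0.069 and 0.001, and 1 of 4 mutants correlated best with its own number. With so few libraries this cannot exclude a pairing. With the replicate block 1824 genes were called, with 4.71% of all genes higher, and 8 of the 10 were called. Retnlg was gained (log2 fold change 3.02, adjusted p = 0.0234), and Cxcl1 (0.0686) and Csf3r (0.0915) were lost. Depth limits the control levels: 8 of the 10 genes had 0 to 11 control reads in all, and their fold changes rest on those few reads.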
